A study of Drosophila melanogaster with 18 samples.

Results

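The RNAs described here come from 37 genes that act in the female germline of Drosophila, in the oocyte, or in the embryo before its own genome is switched on. They were found in the count table by symbol, and 36 of the 37 have a row among the 17558 genes of the count table. The germ plasm helicase gene vas was not analysed here. The members were read in 18 total RNA libraries from adult fly heads, which form 6 groups of 3. Flies carrying Δmimi, a CRISPR deletion in the gene of the neuronal long noncoding RNA mimi, gave granules 1, granules 2 and tissue lysate, and wild-type flies of the w1118 strain gave granules 1, granules 2 and tissue lysate as well. The study describes its flies as adult males and females, and heads of many flies were pooled by blending whole animals and sieving. The tissue lysate is the strained head homogenate, granules 1 is the pellet of a fast spin of the cleared lysate, and granules 2 is such a pellet after a wash with detergent. The labels number the granule isolates of a preparation, and these numbers are taken here as granules 1 and granules 2. The age within adulthood and the share of females in each preparation are not given. The granule and lysate libraries with 1 number come from 1 preparation, and the values of a group are given below for preparations 1, 2 and 3 in that order. Beyond the number, the labels do not say how the 3 preparations of a genotype were separated, so p-values measure the spread between these preparations.

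Nurse cells of the ovary load the oocyte with RNAs and proteins that run the first divisions of the embryo. Some of these RNAs, such as bcd, osk and nanos, are carried to one pole of the oocyte, packed in ribonucleoprotein granules and held silent until they are translated there. The germline also makes piRNAs, small RNAs that guide Piwi proteins to transposons, and much of that machinery sits in granules beside the nuclei of nurse cells. A few proteins of these systems are also used outside the ovary, in neurons among other places. The questions put to these RNAs were how far their level varies between preparations and genotypes, and whether they collect in the granule pellets.

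Libraries held 3635256 to 7798946 counts, and 3 reads, taken as the limit of detection, came to between 0.4 and 0.823 CPM, that is reads per 1e6 of the library. The deleted RNA itself, lncRNA:mimi (chromosome 3R, 23983503 to 23985065), had 30 to 113 reads in the 9 Δmimi libraries and 7090 to 18379 reads in the 9 wild-type libraries, so that the genotype labels hold. As a check on the labelled tissue, 15 photoreceptor genes summed to 69259, 47327 and 62056 CPM in Δmimi lysates and to 63927, 47406 and 64897 CPM in wild-type lysates. Preparation 2 stood apart in both genotypes. Its 13 flight and leg muscle genes summed to 34804 CPM in the Δmimi lysate and 28390 CPM in the wild-type lysate, while the other lysates lay between 9403 and 12607 CPM.

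Most of the members were scarce in heads. Per kilobase of exon, averaged over the 18 libraries, tud stood highest with 114 CPM per kb, followed by smg with 18.9, gcl with 16.2 and bru1 with 13.6 CPM per kb. nanos came next with 8.40 CPM per kb and osk with 7.93 CPM per kb, and all others were lower. In wild-type lysates, 28 of the 36 members averaged under 10 CPM, and the 8 above it were tud, bru1, smg, orb, gcl, stwl, armi and zld. The filter on low counts, a mean of more than 10 normalised reads in the libraries compared, left 30 members to test in the lysates. Those below it were plu (80 reads over all libraries), zuc (67 reads), shu (149 reads), cuff (13 reads), BicC (3 reads) and cup (0 reads). The annotation bears on the last pair, which encode repressors of translation in the oocyte. All 4306 exon bases of cup lie in exons of CG34310 on the same strand, and 94.8% of those of BicC lie in exons of CG45084, so that reads there could not be assigned to 1 gene, and the level of either is unknown. For osk and armi, the later annotation used here also places 78.5% and 99.6% of the exon bases in a second gene on the same strand, which has no row in the table.

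**Figure D1:**
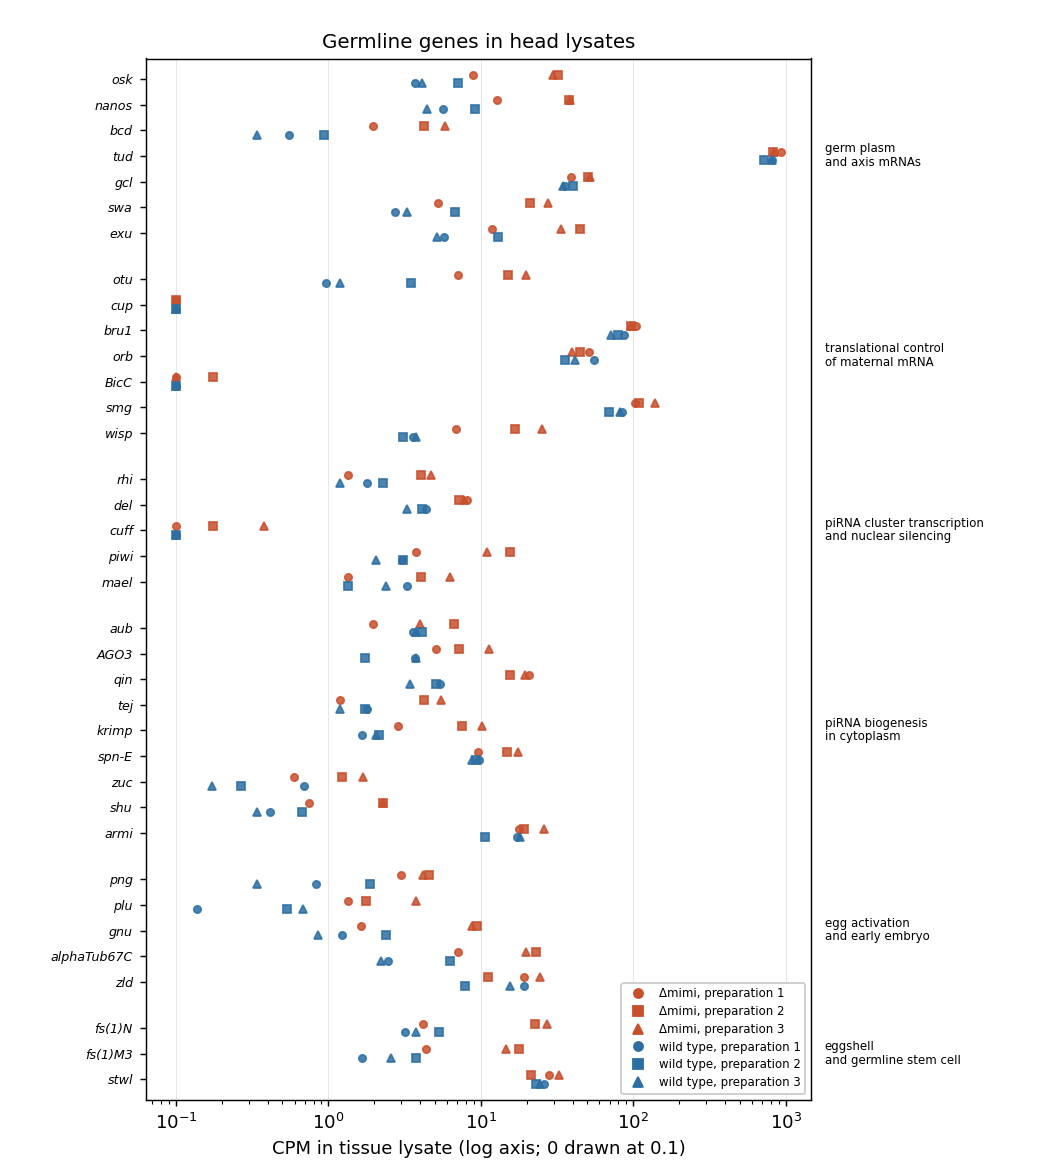
Level of each of the 36 members in the 6 tissue lysates, in CPM on a log axis, with Δmimi preparations in red above wild-type preparations in blue and 1 symbol per preparation number; a level of 0 is drawn at 0.1. Scarce members such as osk, nanos, swa and exu lie further right in Δmimi, with preparation 1 the lowest of the 3, while the values of tud, bru1 and orb lie close together in both genotypes.

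In the lysates, the fitted difference between Δmimi and wild type was above 0 for every member tested, and 1 passed the test. Fitted across 9774 genes, all 30 tested members had a log2 fold change above 0, against 48.7% of all genes, and their median was 1.57, against -0.01 over all genes. Members and lists were chosen with earlier results of these data known. Setting them against all genes, here and below, is therefore a description and no independent test. Calls required an adjusted p under 0.05 together with a log2 fold change above 0.5 in size, and ± gives the SE of a fitted value. By this rule 1 member, qin, was called higher and 0 lower, where 0.859% of all genes were called higher and 0.778% lower. At an unadjusted p under 0.05 there were 21 members of 30 and 13.9% of all genes. The 3 Δmimi values lay above all 3 wild-type values for 16 members, against 9.41% of all genes, and below them for 0, against 9.71%. With the preparation number as a block, 18 members were called higher and 0 lower, against 5.43% and 4.02% of all genes. The labels do not pair the genotypes, and the block rests on same-numbered lysates deviating together over all genes (correlations 0.67, 0.74 and 0.34). For the members, the order of preparations differed between the genotypes. Preparation 1 was lowest for 23 of 30 members in Δmimi lysates and for 7 in wild type, against 36% and 38% of all genes. Preparation 3 was highest for 17 and 3, against 31.8% and 27.3%. qin was also called with any 1 of the 6 lysates left out. Of the tested members, bcd and png averaged under 10 reads in a group and passed the filter through the Δmimi libraries. Of the other 28, 1 was called and the median was 1.25. In bulk RNA, more cells of a type and more RNA per cell cannot be told apart.

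Among the RNAs that set up the germ plasm and the axes, 7 were tested and 0 called. osk (chromosome 3R, 8935126 to 8938395), whose protein assembles the germ plasm at the posterior pole, had 8.84, 32 and 29.9 CPM in Δmimi lysates, against 3.71, 7.08 and 4.12 CPM in wild-type lysates. The groups did not overlap, but Δmimi preparation 1 lay far nearer to wild type than the other two, and the log2 fold change was 2.22 ± 0.50 (adjusted p = 0.0928 in edgeR and 0.000211 with the replicate block). nanos (chromosome 3R, 19157238 to 19160202), a repressor of translation that shapes the posterior, had 12.7, 37.6 and 38.6 CPM in Δmimi and 5.64, 9.22 and 4.46 CPM in wild type. Its groups did not overlap either, with a log2 fold change of 2.17 ± 0.45 (adjusted p = 0.0752 in edgeR and 0.000402 with the replicate block). bcd (chromosome 3R, 6755842 to 6759466), the anterior morphogen, had 1.95, 4.22 and 5.86 CPM in Δmimi and 0.550, 0.935 and 0.343 CPM in wild type. Again every Δmimi lysate was above every wild-type lysate, with a log2 fold change of 2.62 ± 0.54 (adjusted p = 0.0734 in edgeR and 0.00345 with the replicate block), though the wild-type group held 13 bcd reads in all. swa (chromosome X, 6363418 to 6365708) and exu (chromosome 2R, 20667427 to 20671083) encode proteins that anchor and move bcd RNA. swa had 5.25, 21.1 and 27.4 CPM in Δmimi and 2.75, 6.81 and 3.26 CPM in wild type, and exu had 11.8, 44.5 and 33.6 CPM in Δmimi and 5.78, 13 and 5.15 CPM in wild type. For both, Δmimi preparation 1 lay below wild-type preparation 2, so that the groups overlapped, and the log2 fold changes were 2.03 ± 0.61 (adjusted p = 0.183 in edgeR and 0.00191 with the replicate block) and 1.88 ± 0.53 (adjusted p = 0.159 in edgeR and 0.000418 with the replicate block). tud (chromosome 2R, 21183322 to 21192913), the large Tudor-domain scaffold of the germ plasm, and gcl (chromosome 2R, 8724258 to 8728999), which is needed to form the primordial germ cells, were abundant and differed little. tud had 930.2, 829 and 834 CPM in Δmimi and 812, 722 and 807 CPM in wild type, a log2 fold change of 0.14 ± 0.13 (adjusted p = 0.727 in edgeR). gcl had 39.1, 50.3 and 51.8 CPM in Δmimi and 35.5, 40.2 and 34.5 CPM in wild type, a log2 fold change of 0.35 ± 0.14 (adjusted p = 0.339 in edgeR).

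The regulators of maternal mRNA translation divided by abundance. otu (chromosome X, 8485008 to 8489535), a deubiquitinase needed for egg chamber development, had 7.05, 15.1 and 19.7 CPM in Δmimi lysates and 0.963, 3.47 and 1.20 CPM in wild-type lysates. The groups did not overlap, and its log2 fold change was 2.84 ± 0.55 (adjusted p = 0.0604 in edgeR and 0.000236 with the replicate block), second to qin in p. wisp (chromosome X, 11893943 to 11899920), the poly(A) polymerase that lengthens the tails of maternal mRNAs, had 6.90, 16.9 and 25.3 CPM in Δmimi and 3.58, 3.07 and 3.77 CPM in wild type. Its groups were also apart, with a log2 fold change of 2.22 ± 0.45 (adjusted p = 0.0703 in edgeR and 0.000953 with the replicate block). smg (chromosome 3L, 8990317 to 8997989), which silences and clears maternal mRNAs in the embryo, had 103, 109 and 139.9 CPM in Δmimi and 84.2, 69.7 and 81.7 CPM in wild type. The smg groups did not overlap, at a much smaller log2 fold change of 0.57 ± 0.15 (adjusted p = 0.129 in edgeR and 0.00275 with the replicate block). bru1 (chromosome 2L, 12175004 to 12313438), which blocks translation of osk RNA in the oocyte, had 103, 97.1 and 96.2 CPM in Δmimi and 87.1, 79.1 and 71.2 CPM in wild type. Its log2 fold change of 0.32 ± 0.11 (adjusted p = 0.264 in edgeR) did not pass, and orb, a cytoplasmic polyadenylation factor, had a log2 fold change of 0.03 ± 0.20 (adjusted p = 0.975 in edgeR).

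In the piRNA pathway, qin stood out from the rest. qin (chromosome 3R, 18591027 to 18650137), a Tudor-domain protein that keeps piRNA amplification running between Aubergine and AGO3, had 20.7, 15.7 and 19.5 CPM in Δmimi lysates, against 5.37, 5.08 and 3.43 CPM in wild-type lysates. Its preparations agreed closely and the groups were well apart, with a log2 fold change of 1.99 ± 0.22 (adjusted p = 0.00536 in edgeR). Unlike most scarce members, it was not lowest in Δmimi preparation 1. piwi (chromosome 2L, 10982205 to 10987420), the nuclear Argonaute that silences transposons, had 3.75, 15.7 and 11 CPM in Δmimi and 3.03, 3.07 and 2.06 CPM in wild type, a log2 fold change of 1.86 ± 0.50 (adjusted p = 0.144 in edgeR and 0.00834 with the replicate block). krimp (chromosome 2R, 16238103 to 16240722), which brings Aubergine and AGO3 together, had 2.85, 7.56 and 10.2 CPM in Δmimi and 1.65, 2.14 and 2.06 CPM in wild type, a log2 fold change of 1.79 ± 0.47 (adjusted p = 0.134 in edgeR and 0.00514 with the replicate block). For piwi and krimp the groups did not overlap, and Δmimi preparation 1 was the lowest of the 3. del (chromosome 2L, 21145137 to 21148546), a partner of Rhino at piRNA clusters, had 8.09, 7.21 and 7.75 CPM in Δmimi and 4.40, 4.14 and 3.26 CPM in wild type, even across preparations in both genotypes, a log2 fold change of 0.95 ± 0.22 (adjusted p = 0.0954 in edgeR and 0.0182 with the replicate block). spn-E (chromosome 3R, 15837419 to 15844415), a helicase of the perinuclear granules, had 9.59, 14.8 and 17.6 CPM in Δmimi and 9.77, 9.35 and 8.75 CPM in wild type, with overlapping groups and a log2 fold change of 0.57 ± 0.23 (adjusted p = 0.329 in edgeR). The helicase gene armi (chromosome 3L, 3461317 to 3466314) had 17.7, 19.3 and 26.1 CPM in Δmimi and 17.2, 10.7 and 18 CPM in wild type and overlapped too, at 0.45 ± 0.24 (adjusted p = 0.472 in edgeR). The remaining piRNA genes tested were rhi, mael, aub, AGO3 and tej. Together with orb, these reached log2 fold changes of 0.03 to 1.35, with adjusted p of 0.185 to 0.975 in edgeR. With the replicate block AGO3 was called, at 1.32 ± 0.31 (adjusted p = 0.0159 in edgeR).

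Genes used at egg activation and in the early embryo gave a like picture. alphaTub67C (chromosome 3L, 9681268 to 9683370), the maternal alpha-tubulin of the meiotic spindle, had 7.05, 22.9 and 19.8 CPM in Δmimi lysates and 2.48, 6.28 and 2.23 CPM in wild-type lysates. The groups did not overlap, though Δmimi preparation 1 and wild-type preparation 2 came close, and the log2 fold change was 2.14 ± 0.54 (adjusted p = 0.123 in edgeR and 0.000459 with the replicate block). png (chromosome X, 1356488 to 1357601) encodes the kinase that turns on maternal mRNAs at egg activation, and gnu (chromosome 3L, 14802380 to 14803360) encodes its activator. png had 3.0, 4.57 and 4.16 CPM in Δmimi and 0.825, 1.87 and 0.343 CPM in wild type, a log2 fold change of 1.87 ± 0.51 (adjusted p = 0.147 in edgeR and 0.0112 with the replicate block). gnu had 1.65, 9.50 and 8.69 CPM in Δmimi and 1.24, 2.41 and 0.858 CPM in wild type, and there the groups overlapped, at 2.08 ± 0.67 (adjusted p = 0.212 in edgeR and 0.00904 with the replicate block). zld (chromosome X, 19766465 to 19783548), the factor that opens the zygotic genome, had 19.2, 11.1 and 24.6 CPM in Δmimi and 19.1, 7.88 and 15.4 CPM in wild type, with preparation 2 lowest in both, and a log2 fold change of 0.36 ± 0.38 (adjusted p = 0.777 in edgeR). fs(1)N (chromosome X, 1322513 to 1329438) and fs(1)M3 (chromosome X, 5958207 to 5964247), which act in the vitelline membrane of the egg, were among the most variable. fs(1)N had 4.20, 22.7 and 27.2 CPM in Δmimi and 3.16, 5.34 and 3.77 CPM in wild type, and its Δmimi preparation 1 lay within the wild-type range, so that the groups overlapped, at 2.11 ± 0.62 (adjusted p = 0.178 in edgeR and 0.00254 with the replicate block). fs(1)M3 had 4.35, 17.9 and 14.6 CPM in Δmimi and 1.65, 3.74 and 2.57 CPM in wild type, without overlap, at 2.18 ± 0.54 (adjusted p = 0.122 in edgeR and 0.000329 with the replicate block). stwl (chromosome 3L, 14402930 to 14409939), needed to keep germline stem cells, had 28, 21.5 and 32.5 CPM in Δmimi and 26.1, 23 and 24.4 CPM in wild type and did not pass, at 0.15 ± 0.17 (adjusted p = 0.794 in edgeR).

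In the lysates of both genotypes, the median spread between preparations was larger for these RNAs than for genes at large, most in Δmimi. Most members were scarce, and the part of counting noise in this spread was not tested. Over the 3 Δmimi lysates the median SD of the 30 tested members was 0.69 on the log2(CPM + 1) scale, against 0.20 over 9748 genes, and over the 3 wild-type lysates it was 0.30 against 0.18. Among genes above a mean of 50 reads, it was 0.35 in Δmimi lysates over 16 members, against 0.18 over 7754 genes, and 0.30 against 0.17 in wild-type lysates. Of these 16 members, 14 exceeded the median of all such genes in Δmimi lysates and 9 in wild-type lysates. Preparation 1 gave the lowest Δmimi lysate value for 23 of the 30 members (76.7%), where it was lowest for 36% of all genes. The mean of preparations 2 and 3 exceeded preparation 1 by a median factor of 2.66, with extremes of 5.94 for fs(1)N and 0.823 for orb, and was more than 2 times as high for 17 members. The share of all genes above 2 times was not counted. Preparation 3 gave the highest Δmimi lysate value for 17 of the 30 (56.7%), against 31.8% of all genes. In wild type, preparation 2 was the highest for 16 of 30 members and for 39.6% of all genes. Without the preparation 1 lysate of Δmimi, 14 members were called higher in the lysates in place of 1, against 1.91% of all genes. Without the preparation 2 lysate of wild type there were 2, qin and otu, against 0.821% of all genes, and without any other single lysate there was 1. In the granule libraries the Δmimi preparations were closer, with a median SD of 0.38 in granules 1 against 0.17 over all genes and 0.31 in granules 2 against 0.18. In wild type these medians were 0.27 in granules 1 against 0.17 over all genes, and 0.25 in granules 2 against 0.18. Above a mean of 50 reads they were 0.32 against 0.15 in Δmimi granules 1 and 0.29 against 0.16 in Δmimi granules 2. In wild type they were then 0.26 against 0.16 in granules 1. In wild-type granules 2 the excess was gone, at 0.15 against 0.16.

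Summed levels show the same spread. Without tud, which alone outweighs the rest, the 35 other members summed to 495, 695 and 771 CPM in Δmimi lysates and to 397, 366 and 352 CPM in wild-type lysates. A list of 36 replication and mitosis genes moved alongside. Its sum was 315, 669 and 912 CPM in Δmimi lysates and 263, 276 and 227 CPM in wild-type lysates, and all of its 35 tested genes were above 0 in log2 fold change, with a median of 1.50 and 0 called. A list of 18 eggshell genes of follicle cells summed to 6.0, 6.15 and 6.61 CPM in Δmimi lysates. In wild-type lysates it summed to 5.23, 12.4 and 4.98 CPM. Of these 18, 5 or 6 were at 0 in each Δmimi lysate and 4 to 6 in each wild-type lysate, and 0 had enough reads to test. The yolk protein genes Yp1, Yp2 and Yp3, made by fat body as well as by follicle cells, summed to 2160.4, 2213 and 1856 CPM in Δmimi and 1039, 3149 and 840.3 CPM in wild type, highest in wild-type preparation 2. A list of 17 testis genes summed to between 110.2 and 173 CPM in Δmimi lysates and between 123.7 and 170.04 CPM in wild-type lysates. This sum rests mostly on bol, which averaged 798 normalised reads in the lysates, against 47.4 for fzo and 31.3 for mia. Of the 17, 5 to 10 were at 0 in each Δmimi lysate and 4 to 9 in each wild-type lysate. A list of 11 neuron genes summed to 3621, 2773 and 2522 CPM in Δmimi lysates and 4059, 2936 and 3374 CPM in wild-type lysates, which overlapped. Of the 11, 10 were below 0 in log2 fold change, with a median of -0.29 and 0 called. In granules 1 their median was -0.15, with 1 called lower, and in granules 2 it was -0.17, with 0 called. The part that other tissues, or the share of neuronal RNA, had in the result was not tested. Leaving preparation 2 with its muscle RNA out of both genotypes gave 1 member called higher in the lysates, 17 in granules 1 and 10 in granules 2, against 0.628%, 2.56% and 1.34% of all genes.

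**Figure D2:**
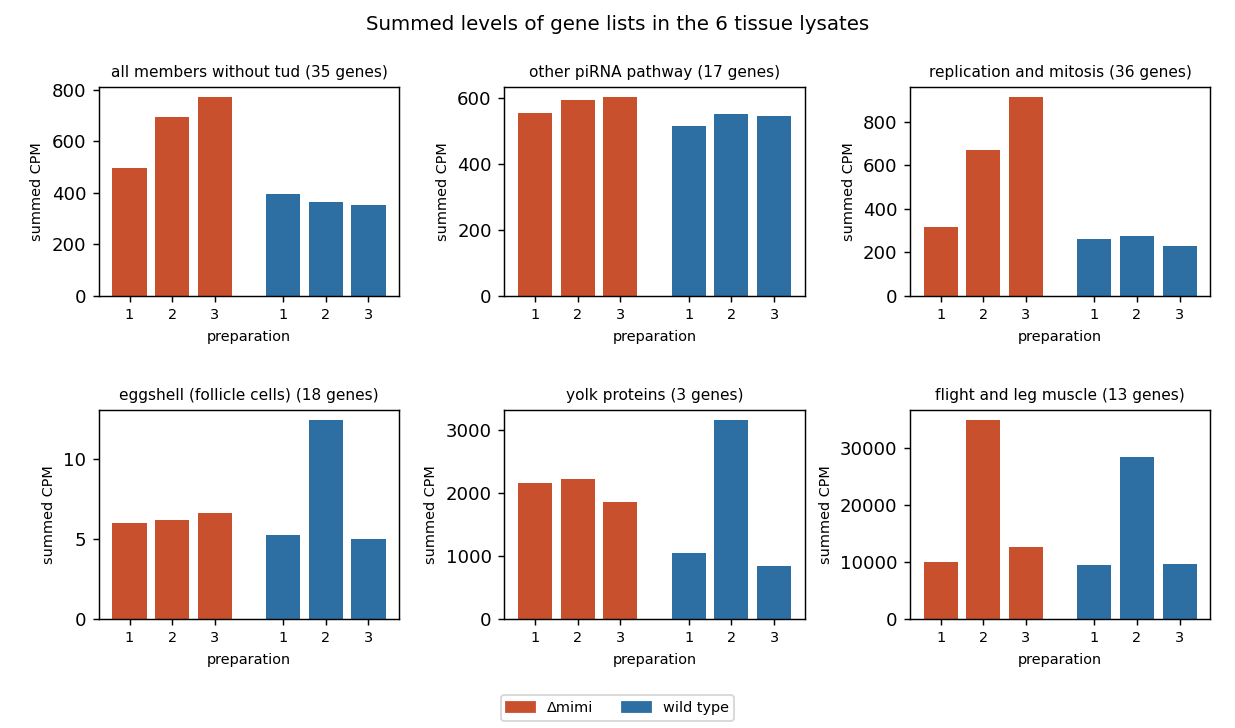
Summed CPM of 6 gene lists in the tissue lysates of preparations 1, 2 and 3, with Δmimi in red left of wild type in blue; each bar is 1 library. The members without tud and the replication and mitosis list are lowest in preparation 1 among the Δmimi lysates, the eggshell list stays between 4.98 and 12.4 CPM, and muscle is high in preparation 2 of both genotypes.

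In the edgeR fits of each pair of groups without the block, more members passed in the granule fractions than in the lysates. Each that passed was higher in Δmimi. DESeq2 and 1 fit of all 18 libraries called as many members in the lysates as in granules 2. By DESeq2 the members called numbered 18 in granules 1, 16 in granules 2 and 16 in the lysates, against 3.77%, 3.42% and 2.52% of all genes. In 1 edgeR fit of all 18 libraries without the block they numbered 19, 16 and 16, against 3.45%, 3.41% and 2.99%. With the block they numbered 19, 19 and 18, against 5.51%, 6.4% and 5.43%. In granules 1, 29 members were tested among 9763 genes, and 16 were called higher in Δmimi and 0 lower, where 2.71% of all genes were called higher and 3.04% lower. Their median log2 fold change was 1.83, against 0.00 over all genes, and 21 members had every Δmimi library above every wild-type library, against 11% of all genes. The reverse order was seen for 0 members, against 15.3%. In granules 2, 28 members were tested among 9636 genes, and 14 were called higher and 0 lower, where 2.67% of all genes were called higher and 2.57% lower. The median there was 1.34, against 0.01 over all genes, and 22 members did not overlap, against 11.5% of all genes, and 0 in the reverse direction, against 12.7%. Leaving out 1 library at a time gave 11 to 15 called members in granules 1, against 1.27% to 2.37% of all genes. Of the 16, 11 were called in each of the 6 fits, and gcl, gnu, png, fs(1)N and fs(1)M3 were lost in some. In granules 2 leaving out 1 library gave 9 to 16 members, lowest without wild-type preparation 1, against 1.2% to 2.48% of all genes. There 6 members (alphaTub67C, exu, osk, qin, swa and wisp) were called in each of the 6 fits. The 2 fractions shared 13 called members. gcl, gnu and png were called in granules 1 and not in granules 2, where gnu and png had too few reads to test, and smg was called in granules 2 and not in granules 1. The standard errors of the members were smaller than in lysates, with medians of 0.29 in granules 1 and 0.31 in granules 2, against 0.46 in the lysates. With the block the medians were 0.25 and 0.23, against 0.26. In granules 1 bcd, gnu, krimp, otu and png averaged under 10 reads in a group. Of the other 24 members 11 were called, with a median of 0.99. In granules 2 this held for krimp, mael, otu, piwi, rhi, swa and tej, 7 members. Of the other 21 members 10 were called, with a median of 1.17. The 36 replication and mitosis genes were again higher in Δmimi, with sums of 493, 683 and 992 CPM in Δmimi granules 1, against 268, 275 and 269 CPM in wild type, and 489.7, 668 and 946 CPM in Δmimi granules 2, against 250.1, 266 and 276 CPM in wild type, and their part in the result was not tested.

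**Figure D3:**
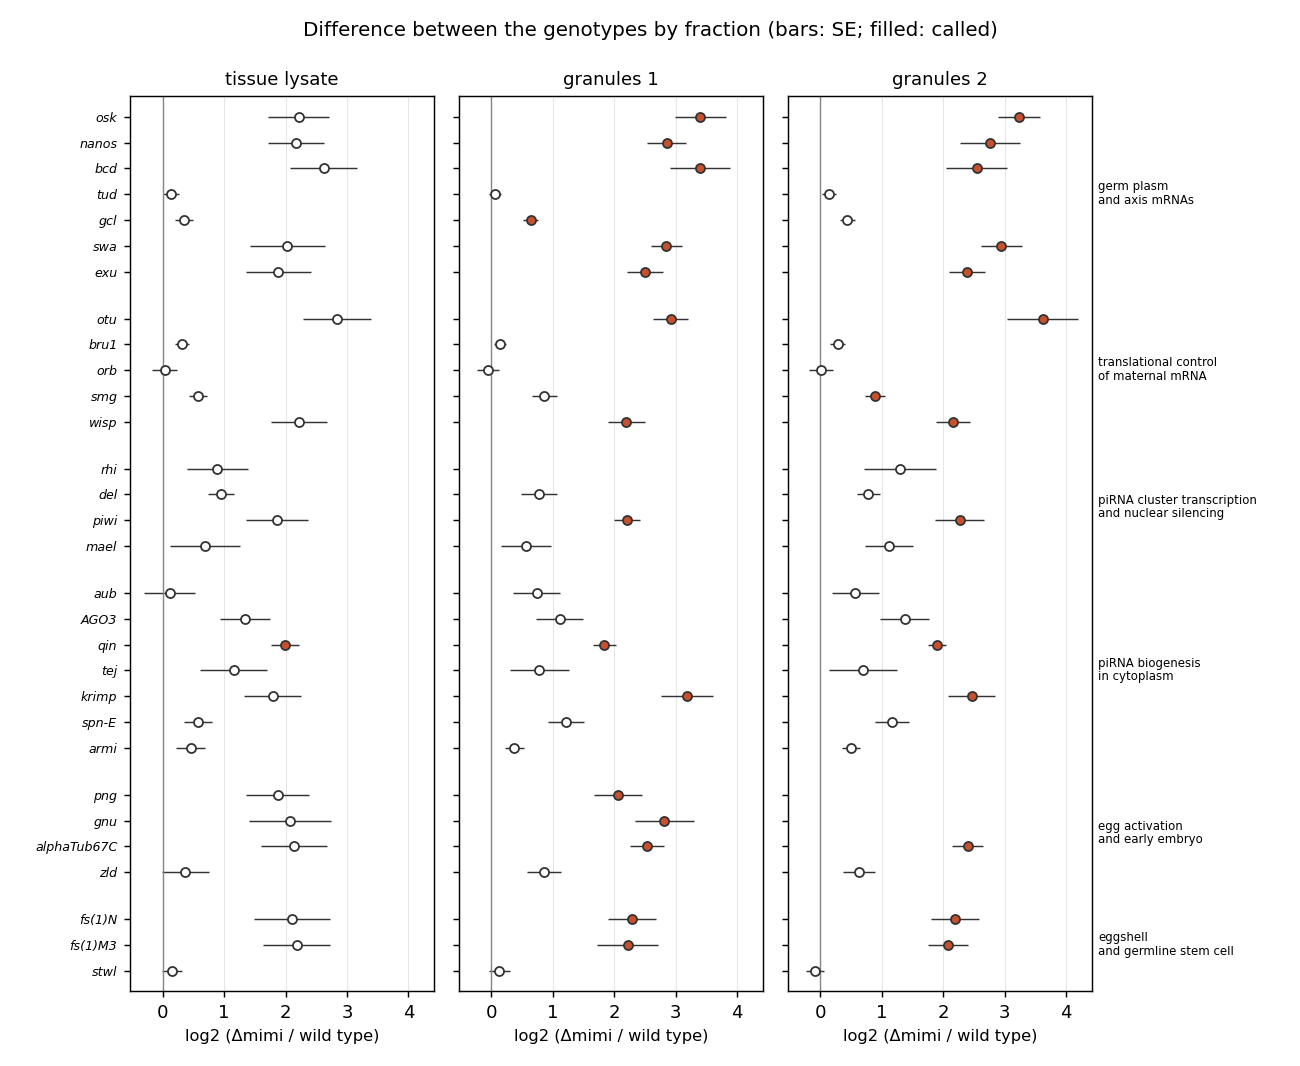
Log2 fold change of Δmimi over wild type for each tested member in tissue lysate, granules 1 and granules 2, from edgeR, with the SE as bars and called members filled. 1 member is filled in the lysate panel, 16 in granules 1 and 14 in granules 2, and the SE bars are shorter in the granules, with medians of 0.29 and 0.31 against 0.46 in the lysates.

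osk and bcd had the largest log2 fold changes in granules 1. osk had 29.1, 45 and 72.9 CPM in Δmimi granules 1 and 4.28, 6.70 and 2.86 CPM in wild-type granules 1, a log2 fold change of 3.40 ± 0.42 (adjusted p = 0.00416 in edgeR). In granules 2 it had 29, 51.3 and 67.2 CPM in Δmimi and 4.84, 6.49 and 4.11 CPM in wild type, at 3.23 ± 0.34 (adjusted p = 0.00205 in edgeR). Its lowest Δmimi library, preparation 1, was far above the highest wild-type library in both fractions. bcd had 6.55, 13.3 and 19.8 CPM in Δmimi granules 1 and 0.793, 1.52 and 1.43 CPM in wild-type granules 1, a log2 fold change of 3.40 ± 0.49 (adjusted p = 0.00747 in edgeR). In granules 2 it had 7.33, 12.1 and 21.3 CPM in Δmimi and 1.74, 3.56 and 1.37 CPM in wild type, at 2.55 ± 0.49 (adjusted p = 0.0245 in edgeR). In both fractions the groups were apart, with preparation 3 the highest and preparation 1 the lowest in Δmimi. nanos had 25.7, 43.8 and 42.6 CPM in Δmimi granules 1 and 4.76, 7.31 and 3.40 CPM in wild-type granules 1, a log2 fold change of 2.85 ± 0.32 (adjusted p = 0.00298 in edgeR). The level in granules 2 was 25.4, 40.1 and 38.9 CPM in Δmimi and 3.68, 9.85 and 1.37 CPM in wild type, at 2.76 ± 0.49 (adjusted p = 0.0174 in edgeR). The nanos groups were far apart in both fractions.

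For swa the Δmimi libraries had 11.9, 13 and 19.5 CPM in granules 1, against 2.06, 2.13 and 1.97 CPM in wild type, and 10.5, 13.5 and 21.1 CPM in granules 2, against 1.74, 2.30 and 1.65 CPM in wild type. The overlap seen in lysates was gone, and the log2 fold changes were 2.85 ± 0.26 (adjusted p = 0.00122 in edgeR) in granules 1 and 2.95 ± 0.34 (adjusted p = 0.00272 in edgeR) in granules 2. exu had 21.3, 29.9 and 27.2 CPM in Δmimi granules 1 and 3.65, 7.0 and 3.22 CPM in wild type, and 24.2, 34.5 and 24.2 CPM in Δmimi granules 2 and 3.88, 7.96 and 3.84 CPM in wild type. It too was apart in both fractions, with log2 fold changes of 2.49 ± 0.30 (adjusted p = 0.0037 in edgeR) and 2.39 ± 0.30 (adjusted p = 0.00402 in edgeR) in granules 1 and granules 2. gcl had 44.2, 55.7 and 48.2 CPM in Δmimi granules 1 and 33.5, 30.9 and 31.6 CPM in wild type, and 39.7, 49.2 and 45.7 CPM in Δmimi granules 2 and 32.9, 35.8 and 30.7 CPM in wild type. Its groups were apart in both, but the change was small, 0.64 ± 0.13 (adjusted p = 0.0269 in edgeR) in granules 1, and missed both thresholds in granules 2, at 0.44 ± 0.13 (adjusted p = 0.0956 in edgeR). tud had 1128, 1098 and 1109 CPM in Δmimi granules 1 and 1029, 1139 and 1079 CPM in wild type, and its log2 fold changes were 0.05 in granules 1 and 0.14 in granules 2.

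Of the translation regulators, otu had 11.9, 8.58 and 13.9 CPM in Δmimi granules 1 and 1.90, 1.22 and 1.43 CPM in wild type, a log2 fold change of 2.91 ± 0.28 (adjusted p = 0.00153 in edgeR). In granules 2 it had 11.2, 8.35 and 13.6 CPM in Δmimi and 0.194, 2.10 and 0.274 CPM in wild type, at 3.62 ± 0.58 (adjusted p = 0.0115 in edgeR), with 12 reads in the whole wild-type group. Both fractions kept the groups apart. wisp had 14.1, 11.1 and 20.8 CPM in Δmimi granules 1 and 2.38, 4.11 and 3.58 CPM in wild type, a log2 fold change of 2.19 ± 0.30 (adjusted p = 0.00613 in edgeR). The level in granules 2 was 15.7, 13.1 and 19.99 CPM in Δmimi and 5.04, 3.14 and 2.47 CPM in wild type, at 2.16 ± 0.28 (adjusted p = 0.00496 in edgeR). smg had 133, 119.9 and 212 CPM in Δmimi granules 1 and 82.8, 82.7 and 92.4 CPM in wild type, and Δmimi preparation 3 stood well above the others, so that its log2 fold change of 0.86 ± 0.21 (adjusted p = 0.0532 in edgeR and 0.00209 with the replicate block) missed the threshold without the block. In granules 2 smg had 132, 134 and 197 CPM in Δmimi and 85.8, 87.6 and 77.9 CPM in wild type and passed, at 0.89 ± 0.17 (adjusted p = 0.0213 in edgeR). bru1 had log2 fold changes of 0.14 in granules 1 and 0.28 in granules 2 and did not pass in either, and orb had -0.06 and 0.01 there.

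Among piRNA genes, qin had 18.5, 16.4 and 22.4 CPM in Δmimi granules 1 and 4.76, 5.02 and 6.44 CPM in wild type, a log2 fold change of 1.83 ± 0.19 (adjusted p = 0.00195 in edgeR). The level in granules 2 was 21.4, 22 and 20.4 CPM in Δmimi and 6.20, 5.45 and 5.48 CPM in wild type, at 1.90 ± 0.15 (adjusted p = 0.000594 in edgeR). In the edgeR fits of each pair of groups without the block, qin was the only member called in all 3 fractions. piwi had 9.66, 8.96 and 9.92 CPM in Δmimi granules 1 and 2.38, 1.67 and 2.15 CPM in wild type, a log2 fold change of 2.21 ± 0.22 (adjusted p = 0.00163 in edgeR). In granules 2 it had 8.39, 11.7 and 10.3 CPM in Δmimi and 3.49, 1.68 and 0.823 CPM in wild type, at 2.27 ± 0.40 (adjusted p = 0.0165 in edgeR). The piwi groups were apart in both. krimp had 6.71, 7.63 and 13.9 CPM in Δmimi granules 1 and 0.635, 1.52 and 0.894 CPM in wild type, at 3.18 ± 0.43 (adjusted p = 0.00593 in edgeR), and 5.33, 7.64 and 11 CPM in Δmimi granules 2 and 0.969, 1.68 and 1.65 CPM in wild type, at 2.47 ± 0.38 (adjusted p = 0.0101 in edgeR). spn-E missed the threshold without the block, with every Δmimi library above every wild-type library. It had 17.8, 16.6 and 29.95 CPM in Δmimi granules 1 and 7.62, 12.5 and 7.69 CPM in wild type, at 1.22 ± 0.29 (adjusted p = 0.0539 in edgeR and 0.0129 with the replicate block), and in granules 2 its log2 fold change was 1.17 ± 0.28 (adjusted p = 0.0551 in edgeR and 0.00144 with the replicate block). del had 7.72, 7.99 and 9.01 CPM in Δmimi granules 2 and 4.65, 4.82 and 4.94 CPM in wild type, at 0.78 ± 0.19 (adjusted p = 0.0549 in edgeR and 0.0261 with the replicate block). armi had 29.8, 23.3 and 27.5 CPM in Δmimi granules 2 and 17.1, 19.9 and 20.6 CPM in wild type, at 0.50 ± 0.15 (adjusted p = 0.114 in edgeR and 0.0219 with the replicate block). With the block the slicer gene AGO3 was called there as well, at 1.30 ± 0.26 (adjusted p = 0.00322 in edgeR). The log2 fold changes of rhi, mael, aub, AGO3, tej and orb spanned -0.06 to 1.11 in granules 1 (5 tested) and 0.01 to 1.37 in granules 2. Of these, 0 were called in the edgeR fits of each pair of groups without the block.

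Of the early embryo genes, alphaTub67C had 11.9, 12.6 and 10.1 CPM in Δmimi granules 1 and 1.90, 2.74 and 1.25 CPM in wild type, a log2 fold change of 2.54 ± 0.28 (adjusted p = 0.00258 in edgeR). The level in granules 2 was 11.6, 11.4 and 13.2 CPM in Δmimi and 1.94, 3.14 and 1.65 CPM in wild type, at 2.40 ± 0.26 (adjusted p = 0.00209 in edgeR). The groups were apart in both. gnu had 6.06, 2.67 and 2.89 CPM in Δmimi granules 1 and 0.476, 0.609 and 0.536 CPM in wild type, at 2.81 ± 0.48 (adjusted p = 0.0152 in edgeR), with 10 reads in the whole wild-type group. png had 3.44, 1.91 and 2.89 CPM in Δmimi granules 1 and 0.635, 0.609 and 0.715 CPM in wild type, at 2.06 ± 0.39 (adjusted p = 0.0227 in edgeR), with 12 reads in wild type. zld had 21.1, 16 and 28.7 CPM in Δmimi granules 1 and 15.1, 8.37 and 13.4 CPM in wild type, which did not overlap, and its log2 fold changes were 0.85 ± 0.28 (adjusted p = 0.134 in edgeR and 0.00881 with the replicate block) in granules 1 and 0.63 ± 0.26 (adjusted p = 0.242 in edgeR and 0.032 with the replicate block) in granules 2. fs(1)N had 17.2, 21 and 31.4 CPM in Δmimi granules 1 and 2.86, 7.92 and 3.40 CPM in wild type, at 2.29 ± 0.39 (adjusted p = 0.0161 in edgeR), and 12.5, 28.1 and 37.1 CPM in Δmimi granules 2 and 5.04, 5.87 and 6.03 CPM in wild type, at 2.19 ± 0.39 (adjusted p = 0.0179 in edgeR). fs(1)M3 had 9.49, 19.6 and 13.9 CPM in Δmimi granules 1 and 2.38, 5.63 and 1.07 CPM in wild type, at 2.21 ± 0.50 (adjusted p = 0.0436 in edgeR), and 10.9, 19.2 and 13.6 CPM in Δmimi granules 2 and 3.10, 4.82 and 2.19 CPM in wild type, at 2.08 ± 0.32 (adjusted p = 0.00974 in edgeR). Both were apart in each fraction, whereas stwl overlapped, with log2 fold changes of 0.13 and -0.09 in granules 1 and granules 2. With the block 19 members were called higher and 0 lower in granules 1, where 5.51% of all genes were called higher and 4.97% lower, and 19 higher and 0 lower in granules 2, where 6.4% were called higher and 4.83% lower. Of 27 members tested in all 3 fractions, 14 were called higher with the block in each, against 3.59% of all genes.

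Whether these RNAs pellet was asked within each genotype. In the edgeR fits of each pair of groups, without the block and with the filter on low counts, 0 members were called in any of the 4 comparisons. In Δmimi, 31 members were tested in each. In granules 1, 2.65% of all genes were called higher and 2% lower, and the members had a median log2 fold change of 0.21, against -0.03 over all genes. In granules 2, 2.43% of all genes were called higher and 1.89% lower, and the median was 0.20 against -0.02. In wild type, 25 members were tested in granules 1, where 4.81% of all genes were called higher and 3.36% lower, with a median of 0.09 against -0.04. In granules 2 there were 23, where 5.41% of all genes were called higher and 4.05% lower, with a median of 0.07 against -0.04. These medians moved with the settings. With the block and a length correction they were 0.06 and 0.02 in Δmimi granules 1 and granules 2, against 0.00 over all genes in both, and -0.01 and -0.06 in wild type, against -0.01 in both. Without preparation 1 the Δmimi medians were 0.07 and 0.04, and without preparation 2 that of wild-type granules 1 was -0.12. Unadjusted p was under 0.05 for 3 members in each Δmimi comparison and for 3 and 4 in the wild-type comparisons of granules 1 and granules 2, against 22.5% to 28.4% of all genes. Without the block, DESeq2 called 1 member, bcd, higher in each Δmimi comparison, against 3.82% and 3.78% of all genes in granules 1 and granules 2. In wild type it called 0, against 5.9% and 6.3% called higher. Since the granules and the lysate of a number come from 1 preparation, the blocked fit compares them directly. It called 3 members higher and 0 lower in Δmimi granules 1, against 5.55% and 8.68% of all genes, and 3 higher and 0 lower in Δmimi granules 2, against 6.3% and 8.51%. In wild type it called 0 higher and 3 lower in granules 1, against 7.29% and 9.44% of all genes, and 0 higher and 2 lower in granules 2, against 7.94% and 10.1%.

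bcd was the member richest in the Δmimi pellets relative to lysate. It had 40, 70 and 110 reads in Δmimi granules 1 and 55, 68 and 97 reads in granules 2, against 13, 24 and 31 reads in the lysates. Within preparations its log2(CPM + 1) was higher in granules 1 than in lysate by 1.36, 1.46 and 1.60, and in granules 2 by 1.50, 1.32 and 1.70, with little spread over the 3. The fitted log2 fold changes were 1.73 ± 0.49 (adjusted p = 0.09 in edgeR and 1.11e-06 with the replicate block) in granules 1 and 1.76 ± 0.49 (adjusted p = 0.0867 in edgeR and 1.77e-09 with the replicate block) in granules 2, and granules and lysate did not overlap. In wild type bcd was too scarce to test, with 5, 10 and 8 reads in granules 1 and 9, 17 and 5 reads in granules 2, against 4, 7 and 2 reads in the lysates. There the differences within preparations were 0.21, 0.38 and 0.86 in granules 1 and 0.82, 1.24 and 0.82 in granules 2 on the log2(CPM + 1) scale, each above 0. osk followed in Δmimi, with the levels given above. Its differences within preparations were 1.61, 0.48 and 1.26 in granules 1 and 1.61, 0.66 and 1.14 in granules 2, smallest in preparation 2, and its log2 fold changes were 1.06 ± 0.49 (adjusted p = 0.25 in edgeR and 4.89e-06 with the replicate block) and 1.07 ± 0.48 (adjusted p = 0.237 in edgeR and 5.02e-11 with the replicate block) in granules 1 and granules 2. In wild type the osk differences were 0.16, -0.07 and -0.41 in granules 1 and 0.31, -0.11 and 0.00 in granules 2, on both sides of 0, with fitted log2 fold changes of -0.12 ± 0.38 (adjusted p = 0.878 in edgeR) and 0.06 ± 0.32 (adjusted p = 0.933 in edgeR).

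**Figure D4:**
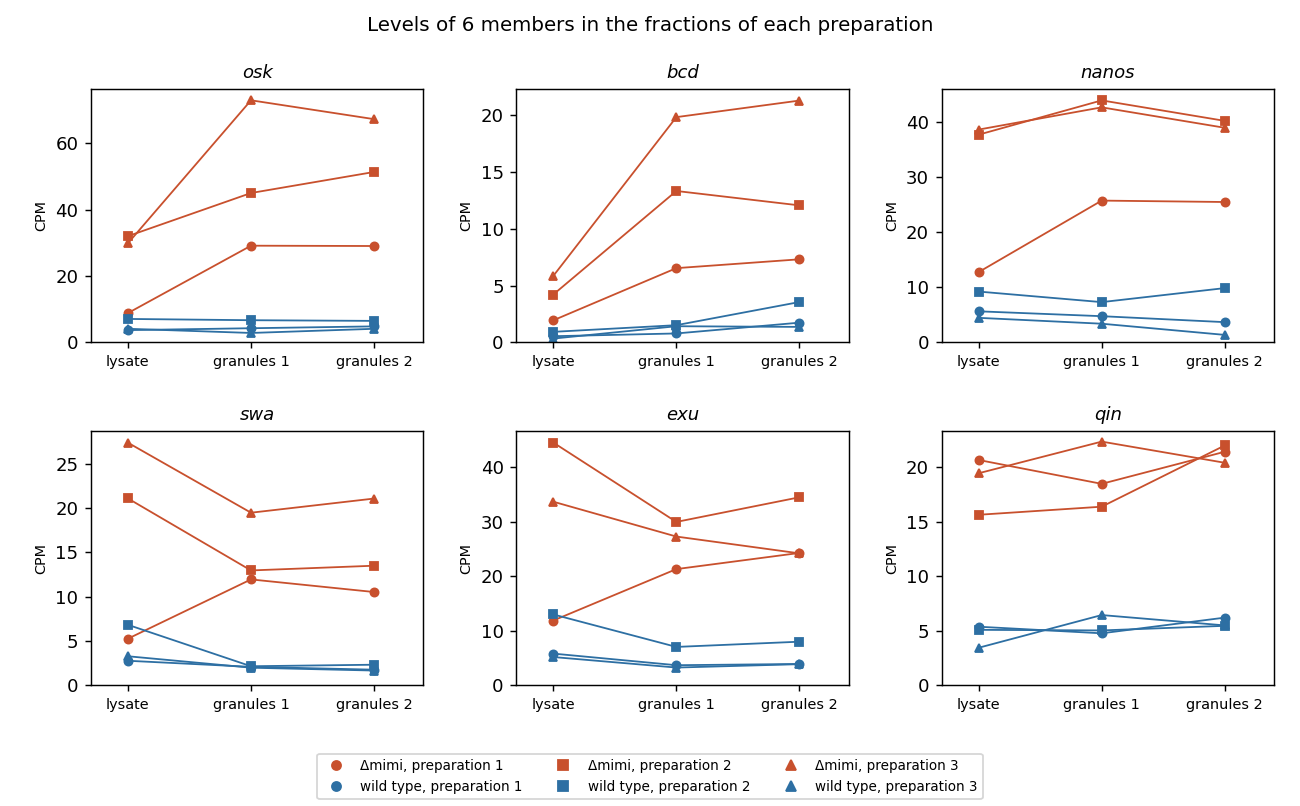
CPM of osk, bcd, nanos, swa, exu and qin in lysate, granules 1 and granules 2, with 1 line per preparation, Δmimi in red and wild type in blue. From lysate to granules 1, osk and bcd climb in each Δmimi preparation, swa and exu fall in each wild-type preparation and in Δmimi preparations 2 and 3 but climb in Δmimi preparation 1, and the lines of qin share no direction.

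The third member called with the block differed between the Δmimi fractions. It was spn-E in granules 1, at 0.61 ± 0.15 (adjusted p = 0.00344 in edgeR), and fs(1)N in granules 2, at 0.61 ± 0.14 (adjusted p = 0.000612 in edgeR). fs(1)N rested most on preparation 1, with differences of 1.38, 0.30 and 0.43 in granules 2 on the log2(CPM + 1) scale. Without the block, tud and bru1 had the lowest p among members after bcd in Δmimi, and the lowest of all members in wild type. Both were above 0 in every preparation, with granules and lysate apart in all 4 comparisons, but by little. Members apart and higher in the granules numbered 3 in each Δmimi comparison, against 13.2% of all genes in granules 1 and 12.7% in granules 2, and 2 and 5 in the wild-type comparisons of granules 1 and granules 2, against 16.1% and 15.6%. Those apart and lower numbered 0 and 1 in Δmimi granules 1 and granules 2, against 15.9% and 16%. In wild type they numbered 2 and 1, against 16.5% and 18.4%. tud had 1029, 1139 and 1079 CPM in wild-type granules 1 and 1029.6, 1097 and 1036 CPM in granules 2, against 812, 722 and 807 CPM in lysates. Its log2 fold changes were 0.46 ± 0.11 (adjusted p = 0.0448 in edgeR) in granules 1 and 0.44 ± 0.11 (adjusted p = 0.0448 in edgeR) in granules 2, past the p threshold but under the fold threshold. In Δmimi they were 0.36 ± 0.11 (adjusted p = 0.119 in edgeR) and 0.43 ± 0.13 (adjusted p = 0.107 in edgeR). bru1 had 119, 99 and 107 CPM in wild-type granules 1, against 87.1, 79.1 and 71.2 CPM in lysates, at 0.43 ± 0.12 (adjusted p = 0.0661 in edgeR), and in Δmimi granules 1 it was at 0.25 ± 0.09 (adjusted p = 0.141 in edgeR). Without wild-type preparation 2, bru1 was called higher in granules 1, at 0.50 (adjusted p = 0.0379 in edgeR).

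With the block, the members called lower in the wild-type pellets were swa, exu and alphaTub67C. These were 3 of 25 members tested in granules 1, against 9.44% of all genes called lower. In granules 2 they were 2 of 23, against 10.1%. Both counts lie near the share of all genes, so they do not set the members apart. swa had 13, 14 and 11 reads in granules 1 and 9, 11 and 6 reads in granules 2, against 20, 51 and 19 reads in the lysates. The differences within preparations were -0.29, -1.32 and -0.52 in granules 1 on the log2(CPM + 1) scale, furthest below 0 in preparation 2, and the fitted log2 fold changes were -1.08 ± 0.40 (adjusted p = 0.143 in edgeR and 0.0235 with the replicate block) in granules 1 and -1.16 ± 0.43 (adjusted p = 0.129 in edgeR and 0.0106 with the replicate block) in granules 2. exu had 3.65, 7.0 and 3.22 CPM in granules 1, against 5.78, 13 and 5.15 CPM in the lysates, with every preparation below 0, at -0.80 ± 0.45 (adjusted p = 0.302 in edgeR and 0.00943 with the replicate block) in granules 1 and -0.60 ± 0.45 (adjusted p = 0.423 in edgeR and 0.0348 with the replicate block) in granules 2. alphaTub67C had 1.90, 2.74 and 1.25 CPM in granules 1, against 2.48, 6.28 and 2.23 CPM in the lysates, at -0.91 ± 0.50 (adjusted p = 0.293 in edgeR and 0.0433 with the replicate block) in granules 1, and did not pass in granules 2, at -0.70 ± 0.50 (adjusted p = 0.403 in edgeR and 0.102 with the replicate block). In Δmimi the preparations split for these RNAs. swa differed by 1.05, -0.66 and -0.47 in granules 1, exu by 0.79, -0.56 and -0.29 and alphaTub67C by 0.69, -0.81 and -0.91, above 0 in preparation 1 and below 0 in the others. Over the 30 members tested in the lysates, the median difference between Δmimi granules 1 and lysate was 0.69 in preparation 1, 0.04 in preparation 2 and 0.09 in preparation 3, against medians over all genes of -0.01, -0.03 and 0.00. Granules 2 gave 0.64, 0.08 and 0.00. Preparation 1 is the Δmimi preparation whose lysate was low for most members, and in its granules these RNAs were not low to the same degree. In wild type the medians were -0.10, 0.03 and -0.06 in granules 1 and 0.05, 0.09 and -0.05 in granules 2.

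**Figure D5:**
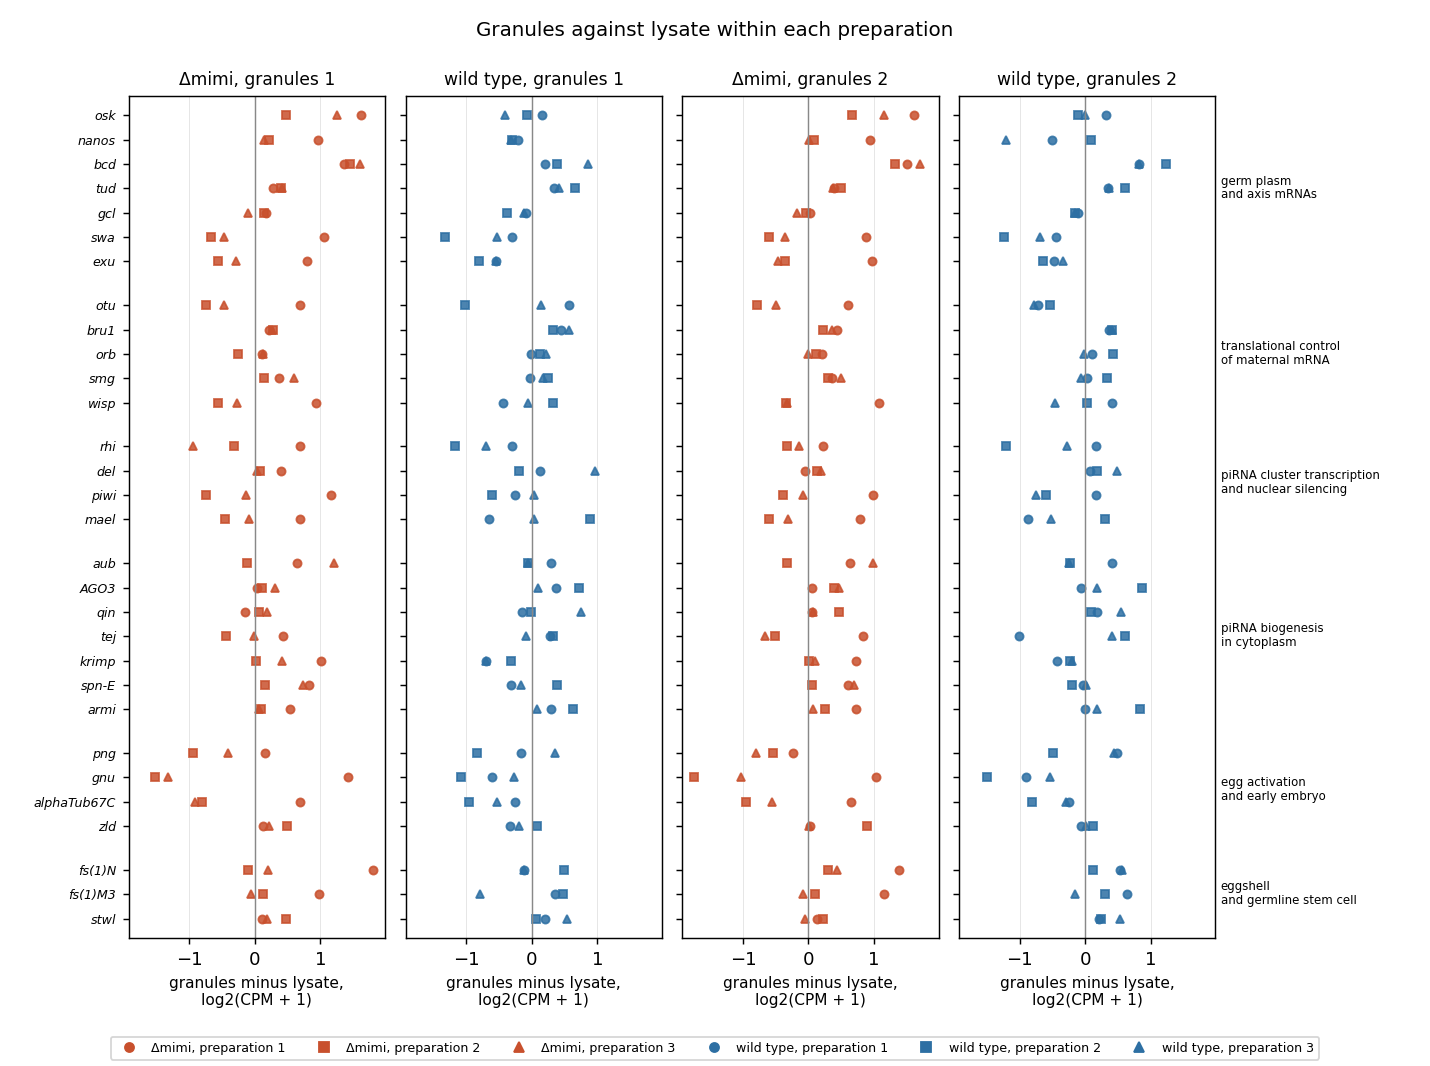
Difference between granules and lysate of the same preparation on the log2(CPM + 1) scale for the 30 members tested in the lysates, for granules 1 and granules 2, with each Δmimi panel left of its wild-type panel and 1 symbol per preparation. Circles, preparation 1, lie furthest right for most scarce members in Δmimi, with a median of 0.69 in granules 1, and bcd is above 0 in every panel.

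Whether pelleting differed between the genotypes was tested as an interaction. Of 30 members tested for granules 1, 0 were called in either direction, where 0% of 9774 genes were called higher and 0.0102% lower, and 0 of 30 were called for granules 2, where 0% of 9741 genes were called in each direction. Without the block there were 0 members at an unadjusted p under 0.05 in either, against 2.61% of all genes for granules 1 and 2.37% for granules 2, and DESeq2 also called 0 members in both. The lowest p belonged to krimp, at 1.40 ± 0.71 (adjusted p = 0.9999 in edgeR), osk, at 1.19 ± 0.73 (adjusted p = 0.9999 in edgeR), and spn-E, at 0.65 ± 0.40 (adjusted p = 0.9999 in edgeR), for granules 1. For granules 2 it belonged to gnu, at 1.77 ± 1.16 (adjusted p = 0.9999 in edgeR), spn-E, at 0.60 ± 0.39 (adjusted p = 0.9999 in edgeR), and osk, at 1.02 ± 0.69 (adjusted p = 0.9999 in edgeR). With the block 0 members were called in both, where 0.0409% of genes were called higher and 0.317% lower for granules 1, and 0.0411% and 0.4% for granules 2. The unadjusted p was then under 0.05 for 7 of 30 members for granules 1, against 7.52% of all genes, and for 4 of 30 for granules 2, against 7.08%. The standard errors of the members had medians of 0.62 for granules 1 and 0.66 for granules 2 without the block, and of 0.38 and 0.34 with it.

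Germline genes outside the 37 were read from lists written for this purpose. Of 15 tested genes of the wider piRNA pathway, 1 was called higher in Δmimi lysates, SoYb, a Tudor-domain protein of the Yb family, with a log2 fold change of 2.40 ± 0.27 (adjusted p = 0.0062 in edgeR). Next in p were squ, at 1.55 ± 0.38 (adjusted p = 0.116 in edgeR), and vret, at 1.51 ± 0.40 (adjusted p = 0.14 in edgeR). The median of that list was 0.16. Of 18 tested genes of oocyte patterning and the germ plasm, 1 was called, clos, at 2.58 ± 0.45 (adjusted p = 0.0419 in edgeR), followed by pgc, which silences transcription in germ cells, at 2.34 ± 0.54 (adjusted p = 0.0969 in edgeR), and dhd, the oocyte thioredoxin, at 2.18 ± 0.58 (adjusted p = 0.143 in edgeR). The median there was 0.23. Of 11 tested meiosis genes 0 were called, with a median of 0.09, and mtrm, an inhibitor of Polo kinase in the oocyte, was the lowest in p, at 1.77 ± 0.42 (adjusted p = 0.108 in edgeR), then sub at 1.53 and twe at 0.78. Among the replication and mitosis genes tum, CycB and pav were the lowest in p, at 1.99, 2.19 and 2.43. Over all genes, 0.859% were called higher in the lysates. In granules 1 these 4 lists had 1, 5, 2 and 17 genes called higher, of 16, 18, 11 and 35 tested, and 0 lower, against 2.71% of all genes higher and 3.04% lower. In granules 2 they had 2, 4, 2 and 19 called higher, of the same numbers tested, and 0 lower, against 2.67% and 2.57%.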

How the data were processed

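Total RNA of 18 samples (2 genotypes, 3 head preparations of each, 3 fractions of each preparation) was depleted of ribosomal RNA and made into stranded libraries. The labels' processing notes name STAR, Subread featureCounts and DESeq2 on dm6, with versions not given in the sources used here, and the strand setting of the counting is likewise not given. The authors deposited raw gene counts, whole numbers that were not normalized. The authors' own comparison tables were not used. Symbols and positions come from a later Ensembl annotation of BDGP6, in which 17252 identifiers were found and 306 were not.

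Counts were fitted with edgeR 4.0.16 in R 4.3.3 (TMM, quasi-likelihood test), on the libraries of the groups compared, for genes with a normalised mean above 10. A gene was called at a Benjamini-Hochberg adjusted p under 0.05 over all genes tested and an absolute log2 fold change above 0.5. CPM values use TMM over all 18 libraries, and the log2 scale of levels has a pseudocount of 1. The scripts were tested on simulated data. Same-numbered libraries deviated from their group means together in all 21 pairs (correlation 0.30 to 0.76 across genes), so the numbers were taken as pairs. Granules and lysate of a number share a preparation, but the labels do not pair the genotypes. Alternatives were DESeq2 1.42.0, its size factors, other filters, the block, a length correction with the block, 1 fit of all libraries, each library left out, and, chosen after seeing the data, preparation 2 left out. Members and lists were chosen with earlier results of these data known. Members given library by library were those called in any of 9 fits, the 3 lowest in p of each, and the most abundant of each role. Promoter motifs were not searched.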

Additional observations from a re-analysis of the deposited data

Results flagged for a closer look

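In granules 1, krimp and nanos were higher than in the lysate of the same preparation in each Δmimi preparation and lower in each wild-type preparation. They were picked by this pattern from 30 members, and the share of all genes with it was not counted. For krimp the log2(CPM + 1) differences averaged 0.475 in Δmimi and -0.568 in wild type, 1.043 apart, and for nanos 0.438 in Δmimi and -0.272 in wild type, 0.71 apart. In granules 2 krimp showed the pattern again, averaging 0.276 in Δmimi and -0.289 in wild type, 0.565 apart. In Δmimi preparation 2 the krimp difference was near 0, at 0.011 in granules 1 and 0.013 in granules 2. The wild-type group held 19 krimp reads in granules 1 and 19 in granules 2. The interaction test of the difference did not pass for any of them, with fitted log2 differences of 1.40 and 0.69 for krimp and nanos in granules 1 and 0.68 for krimp in granules 2 (adjusted p = 0.9999 in edgeR for each). With the replicate block these were 1.44 ± 0.47 for krimp (adjusted p = 0.376 in edgeR) and 0.75 ± 0.27 for nanos (adjusted p = 0.463 in edgeR) in granules 1, and 0.74 ± 0.45 for krimp (adjusted p = 0.834 in edgeR) in granules 2. Groups of 3 were too small to look for single outlying libraries.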

How the results depend on the processing

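In the lysates, the 1 member called higher became 16 with DESeq2 and with all 18 libraries in 1 fit, against 2.52% and 2.99% of all genes. With no filter on low counts there were 6, against 0.857%. The replicate block, alone or with a length correction, gave 18, against 5.43% and 5.65%. Leaving out single libraries gave 1 to 14, against 0.439% to 1.91%. With genes above a mean of 50 reads alone, members called higher numbered 8 in granules 1 and 7 in granules 2, where fewer members were tested. Of all genes, 2.05% and 1.88% were then called higher. Leaving out single libraries gave 11 to 15 and 9 to 16, against 1.27% to 2.37% and 1.2% to 2.48% of all genes. In Δmimi, 0 members were called higher in granules 1 and in granules 2 over lysate in the reported fits. DESeq2 called 1 each, against 3.82% and 3.78% of all genes, and so did 1 fit of all 18 libraries, against 3.95% and 3.98%. With the replicate block there were 3 each, against 5.55% and 6.3%, and with a length correction added 2 each, against 5.44% and 5.71%. In wild type, members called lower in granules 1 numbered 3 with the block and 2 with the length correction added, against 9.44% and 4.4% of all genes. In granules 2 they numbered 2 with either, against 10.1% and 4.54%, and 1 with no filter, against 2.7%. Members called higher in wild-type granules 1 numbered 0 to 1 when a preparation was left out, against 0.5% to 6.74% of all genes. The median SD of Δmimi lysates was 0.355 with genes above a mean of 50 reads, against 0.183 over all such genes. The causes of these changes were not tested, except where fewer genes or libraries entered. Other size factors and, added after seeing the data, leaving out preparation 2 of both genotypes left these counts within 1.5 times. Log2 fold changes were followed for members called in a fit or among its 3 lowest in p, and none of these changed sign in any alternative. For these members, 571 alternatives left the status of a member unchanged, whether called or not called, 26 gained a call and 40 lost one. Scarce members rest on few reads, and those averaging under 10 reads in a group give folds of low precision.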
